A study of Mus musculus with 26 samples.

Results

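The 2870 regions described here are 1-kb stretches of the mouse autosomes that carried less H3K4me2 in lineage-negative bone marrow of GFI1-KD mice than in that of GFI1-WT mice. A bin was kept when both libraries together held at least 40 read starts in it and the GFI1-WT value, in reads per 1000000 (RPM) plus 1, was at least 3 times the GFI1-KD value. Of 85284 bins with enough reads, 3.37% met that rule, and 1559 bins (1.83%) met its mirror image with more signal in GFI1-KD. Of all autosomal bins, 1604585 held at least 1 read. The members were chosen by this difference in read counts, so it is described below without a test.

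The ChIP-seq libraries came from C57BL/6 bone marrow, depleted of lineage-positive cells on magnetic columns and left untreated, with an antibody against H3K4me2. There is 1 library per genotype, so no difference between them has a replicate check, and fewer cells of a type cannot be told apart from less mark per cell. The origin of the GFI1-KD allele, the number, age and sex of the mice and the lineage antigens depleted are not in the labels; the title of that library reads GFI-KD. RNA was measured in other cells: myeloid progenitors transformed by Hoxa9 and Meis1 (H9M) or by MN1, as controls (CTL) or LSD1 knockouts (KO), here without all-trans retinoic acid, 3 libraries per group. Every RNA sample carries the strain entry CreERT2-;LSD1TM1Schuele, knockouts and controls alike. Knockout cells received 0.1 µM 4-hydroxytamoxifen for 72 h, and the labels leave unsaid whether controls did.

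H3K4me2 marks promoters and enhancers that are active or held ready for use. GFI1 is a zinc finger repressor that brings LSD1, a demethylase of H3K4, and its CoREST partners to chromatin, and it steers progenitors towards granulocytes. Its close relative GFI1B acts in the red cell and megakaryocyte lineages, where GATA1, KLF1, TAL1 and LMO2 switch on the globins, haem enzymes and membrane proteins of the red cell.

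Promoter sequence gave the first feature of the bins that the rule did not use. RefSeq promoter windows (GRCm38.p6) run from 250 bases before to 50 bases after a gene's start, and 112 of them lay with at least 150 bases in a member bin, which is 0.824% of the 13595 windows in tested bins. The GATA motif, searched as AGATAAG on both strands, was in 23 of the 112 windows (20.5%). It was in 1.86% of all windows in tested bins, in 3.78% of the 2432 windows whose bins had no more reads than the members' 95th percentile, in 1 of 64 windows (1.56%) in bins with more signal in GFI1-KD, and in 3.03% of 31396 windows over the autosomes. Seen from the motif, 9.09% of the tested windows that hold it lay in member bins. The 6 windows below belong to genes of the red cell and are shown because they hold the motif, which is in capitals, as AGATAAG or as its reverse complement CTTATCT. Each is written 5′ to 3′ on the gene's strand.
Pklr, chr3:89135892-89136191, plus strand: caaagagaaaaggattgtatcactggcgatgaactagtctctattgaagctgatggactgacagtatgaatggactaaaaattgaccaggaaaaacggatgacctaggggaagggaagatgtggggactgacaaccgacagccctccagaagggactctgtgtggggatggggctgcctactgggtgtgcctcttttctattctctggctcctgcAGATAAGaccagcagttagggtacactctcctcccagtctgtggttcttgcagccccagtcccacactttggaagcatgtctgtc
Trim10, chr17:36869324-36869623, plus strand: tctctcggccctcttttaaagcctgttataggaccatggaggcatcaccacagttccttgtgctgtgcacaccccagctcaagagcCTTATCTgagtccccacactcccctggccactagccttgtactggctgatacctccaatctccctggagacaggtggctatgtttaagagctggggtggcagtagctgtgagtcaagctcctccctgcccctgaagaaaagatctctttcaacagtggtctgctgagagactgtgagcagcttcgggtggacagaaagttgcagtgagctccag
Hbb-bs, chr7:103827879-103828178, minus strand: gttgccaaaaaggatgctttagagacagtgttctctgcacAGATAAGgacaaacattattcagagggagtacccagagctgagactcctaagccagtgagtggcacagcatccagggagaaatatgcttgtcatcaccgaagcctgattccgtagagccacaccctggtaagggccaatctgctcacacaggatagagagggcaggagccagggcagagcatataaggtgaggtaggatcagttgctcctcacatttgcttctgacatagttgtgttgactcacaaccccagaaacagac
Epb42, chr2:121036828-121037127, minus strand: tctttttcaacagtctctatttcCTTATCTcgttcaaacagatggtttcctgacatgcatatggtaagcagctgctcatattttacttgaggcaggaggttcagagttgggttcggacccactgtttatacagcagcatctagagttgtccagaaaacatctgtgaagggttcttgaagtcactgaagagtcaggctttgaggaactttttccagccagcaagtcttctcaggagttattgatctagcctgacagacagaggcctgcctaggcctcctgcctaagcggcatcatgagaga
Epor, chr9:21963527-21963826, minus strand: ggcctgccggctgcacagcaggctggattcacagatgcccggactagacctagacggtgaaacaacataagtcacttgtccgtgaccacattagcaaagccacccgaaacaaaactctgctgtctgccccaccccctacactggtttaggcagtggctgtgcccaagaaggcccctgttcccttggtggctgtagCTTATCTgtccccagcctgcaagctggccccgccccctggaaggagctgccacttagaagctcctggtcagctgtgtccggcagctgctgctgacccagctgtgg
Rhd, chr4:134864286-134864585, plus strand: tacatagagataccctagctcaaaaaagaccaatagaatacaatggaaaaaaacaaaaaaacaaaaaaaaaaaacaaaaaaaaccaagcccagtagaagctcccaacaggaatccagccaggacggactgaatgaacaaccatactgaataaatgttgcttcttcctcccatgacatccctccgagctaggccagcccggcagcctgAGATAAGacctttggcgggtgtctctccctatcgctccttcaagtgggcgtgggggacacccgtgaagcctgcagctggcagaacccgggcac

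The match began 35 bases before the start of Pklr, the red cell pyruvate kinase, whose bin held 74 GFI1-WT reads and 4 GFI1-KD reads. At Rhd, which encodes the Rhesus blood group protein, it began 43 bases before the start, in a bin of 66 and 13 reads. The erythropoietin receptor gene Epor had it 55 bases before the start and a bin of 85 and 17 reads. For Trim10 the distance was 164 bases and the bin held 72 and 5 reads. At the adult beta-globin gene Hbb-bs the match lay 210 bases before the start, in a bin of 38 and 2 reads. Epb42, which encodes a protein that ties the red cell skeleton to its membrane, had it 227 bases before the start and a bin of 63 and 8 reads. Among the 6 windows of erythroid-list genes in member bins, 2 had the motif (Hbb-bs and Epor) and 4 did not (Klf1, Aqp1, Ermap and Sphk1). Kel, Tspo2 and Uros windows had none either. Only the exact letters AGATAAG were searched, so other GATA-like letters in these windows were not counted. The windows shown were chosen after their values were seen; 17 of the 23 windows with the motif belong to protein-coding genes, among them also Ackr1, Clta, Cyp1a1, Ssbp3, Gid8, H2bu2, Mylk3 and Il1rl1. A match of letters is a description and not a binding site.

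The other motifs gave smaller contrasts. The MYB motif CAACTG was in 20.5% of member windows against 10.2% of tested and 13.4% of all windows, and the AP-1 motif TGANTCA in 12.5% against 5.0% and 7.84%. In bins with more signal in GFI1-KD the shares were 10.9% for MYB and 18.8% for AP-1, the latter above that in member windows. The PU.1 motif AGGAAGT was in 6.25% of member windows, 9.16% of tested windows and 17.2% of the windows in bins with more signal in GFI1-KD. No member window held the GFI1 motif AAATCAC, which was in 1.94% of tested windows and 3.21% of the 2432 of like depth. In bins with more signal in GFI1-KD it was in 4 of 64 windows (6.25%). Its absence says only that these letters were not in these 112 windows. RUNX (TGTGGTT) stood at 3.57% in member windows and 3.84% in tested windows, C/EBP (TTGCNNAA) at 8.93% and 8.21%, the E-box (CACCTG) at 15.2% and 18.2%, EBF (CCCNNGGG) at 16.1% and 19.1%, and IRF (GAAANNGAA) at 9.82% and 7.21%. The KLF1-type motif CCACNCCC, added after the values were seen, was in 26.8% of member windows, 23.7% of tested windows and 21.7% at like depth. All were searched on both strands, and matches of different motifs can overlap. Base composition moved with membership: the median member window held 4 CpG and 50.2% G and C, the median tested window 21 CpG and 61.3%, and the median tested window of like depth 9 CpG and 54.7%. Windows in bins with more signal in GFI1-KD had a median of 4 CpG and 50.5% G and C. The part of base composition in the GATA share was not tested.

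**Figure D1:**
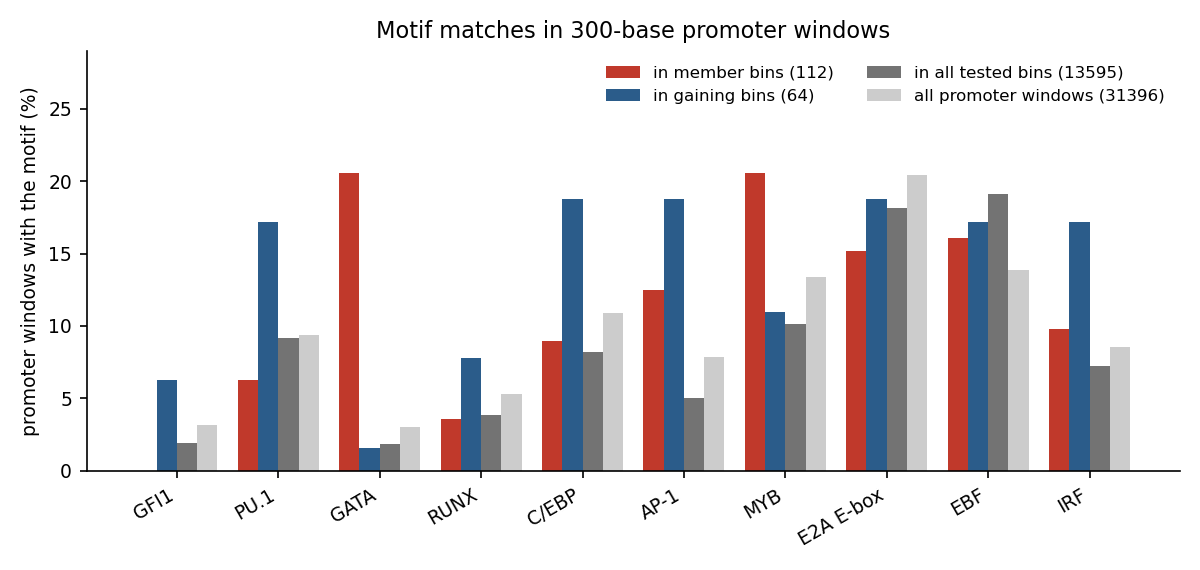
Share of 300-base promoter windows (vertical axis, percent) that hold each of 10 motifs (horizontal axis) on either strand, for windows in member bins (red), in bins with more signal in GFI1-KD (blue), in all tested bins (dark grey) and over the autosomes (light grey). GATA stands at 20.5% in member windows and at 1.56% to 3.03% in the other sets.

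A microRNA cluster lay inside the members. Mir144 and Mir451a, whose mature RNAs are abundant in red cell precursors, sit in the bin chr11:78073001-78074000 with Mir451b on the other strand, and that bin held 58 GFI1-WT reads and 6 GFI1-KD reads. Of 177 hairpins centred in tested bins, 5 (2.82%) were in member bins, no larger a share than the 3.37% of all tested bins; the other two were Mir7052 and Mir3103. The mature sequences are shown with the seed, bases 2 to 8, in capitals, because they are the products of a non-coding locus whose bins were members, and they do not share a seed.
miR-144-5p: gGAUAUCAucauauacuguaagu
miR-144-3p: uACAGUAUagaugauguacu
miR-451a: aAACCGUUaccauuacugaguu
miR-451b: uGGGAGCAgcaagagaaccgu
All 9 tested bins from 78062001 to 78075000 on chromosome 11 were members. Their GFI1-WT reads ran from 39 to 98 and their GFI1-KD reads from 4 to 15. From 78079001 to 78081000, about the start of the neighbouring gene Eral1, 2 bins held 120 and 230 GFI1-WT reads against 82 and 180 GFI1-KD reads, ratios of 1.501 and 1.34. The rule for linking bins to genes assigns the 9 members to Eral1, since only protein-coding genes were used for it.

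The members held moderate numbers of reads in GFI1-WT and few in GFI1-KD. A member held 35 to 160 GFI1-WT reads (median 52) and 0 to 44 GFI1-KD reads (median 7), from libraries of 8949072 and 9538627 reads after the mapping quality filter, where 1 read is worth 0.112 and 0.105 RPM. The ratio ran from 3.00 to 8.74 with a median of 3.89; 1570 members had a ratio under 4, 870 between 4 and 5, 329 between 5 and 6, and 101 of 6 or more. No GFI1-KD read fell in 20 members, and 369 held 1 to 3. The median ratio over all tested bins was 0.912. The 5 members nearest the threshold had ratios of 3.00 to 3.01 (108 and 32 reads at Nanp, for example), and the 5 bins just outside it stood between 2.99 and 3.00 (46 and 10 reads at Iqsec1). Plus-strand and minus-strand reads are parts of the same reads that the rule used, so their likeness is a description only: every member was higher in GFI1-WT among plus-strand and among minus-strand reads, with median ratios of 3.95 and 4.01.

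**Figure D2:**
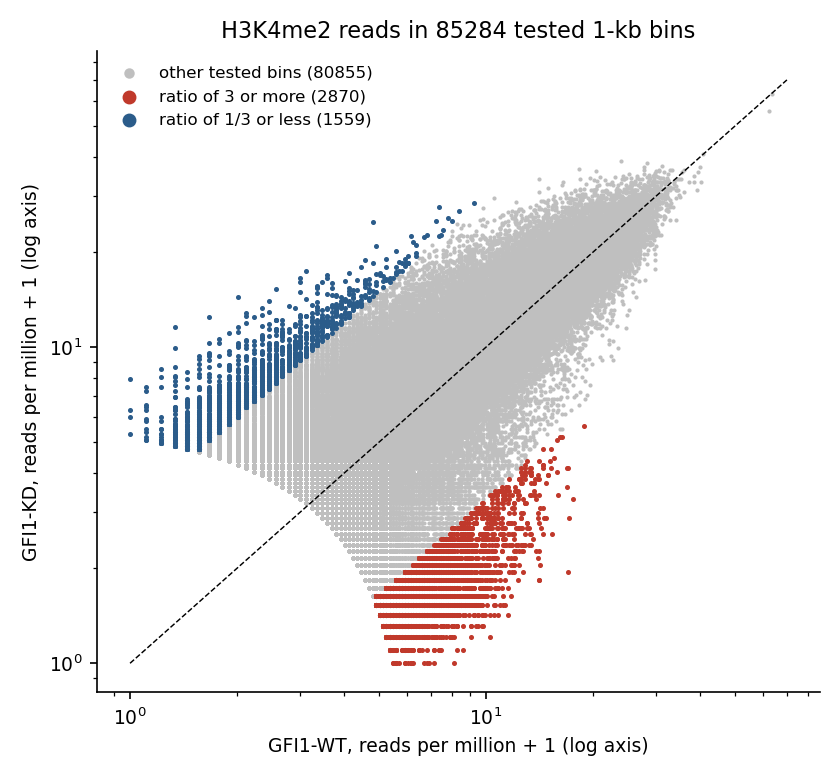
Each point is one of 85284 tested bins, with GFI1-WT on the horizontal and GFI1-KD on the vertical log axis, both in RPM plus 1. The 2870 members (red) lie at low to moderate GFI1-WT levels and the 1559 bins with more signal in GFI1-KD (blue) mirror them across the dashed line of equality.

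Membership depended on depth. Among bins of 40 to 59 summed reads 6.53% were members, among those of 100 to 149 reads 1.92%, and of 10004 bins with 300 or more reads none. The strongest H3K4me2 bins, 84.1% of which lie within 1 kb of a gene start, are thus not among the members. Over the 19 autosomes the share of members ran from 2.23% to 4.59%.

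Most members lay away from gene starts. A gene start (either gene end where the annotation gave no start) was within 1 kb of 370 members, or 12.9% (95% exact interval 11.7% to 14.2%, counting error only), against 39.4% of all tested bins. Since members were shallower, the comparison closer in depth is with the tested bins of up to 113 summed reads, the members' 95th percentile, of which 19.5% lay that near a start. Bodies of protein-coding genes, exons and introns together, held a further 1874 members (65.3%) against 38.9% of tested bins and 51.0% of those of like depth. The remaining 626 (21.8%) were intergenic, close to the 21.7% of all tested bins and below the 29.5% at like depth. Intergenic here includes any bin inside a non-coding gene and away from its start. Bins with more signal in GFI1-KD were as rarely near a start (13.3%), but 38.4% of them were intergenic and 48.3% were in gene bodies. The median distance from a member to the start of its linked gene was 9.46 kb, against 2.92 kb over tested bins.

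Members clustered along the chromosome. They formed 2027 runs, of which 1475 were single bins, 370 were pairs and 182 had 3 bins or more; 48.6% of members had a member next to them. The longest run, 8 bins over chr4:134863001-134871000, covered the start and first part of Rhd, with 51 to 100 GFI1-WT reads and 4 to 15 GFI1-KD reads per bin. The 1025 tested bins that touch a member without being one had a median ratio of 2.04, and 94.2% of them were above 1, against 38.5% of all tested non-members. These neighbours share fragments and wide peaks with the members, so they are not independent of the rule.

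The mean signal around members showed the same local shape. Within 500 bases of a member's centre, GFI1-WT averaged 6.38 RPM per kb and GFI1-KD 0.850. At 500 to 1500 bases the values were 4.60 and 1.31, at 1500 to 3000 bases 3.58 and 1.89, and at 3 to 5 kb 2.67 and 1.66. The GFI1-WT to GFI1-KD quotient thus went from 7.51 at the centre to 1.61 at 3 to 5 kb. Around tested non-members of 40 to 113 summed reads it was 0.784 at the centre and 0.931 at 3 to 5 kb.

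**Figure D3:**
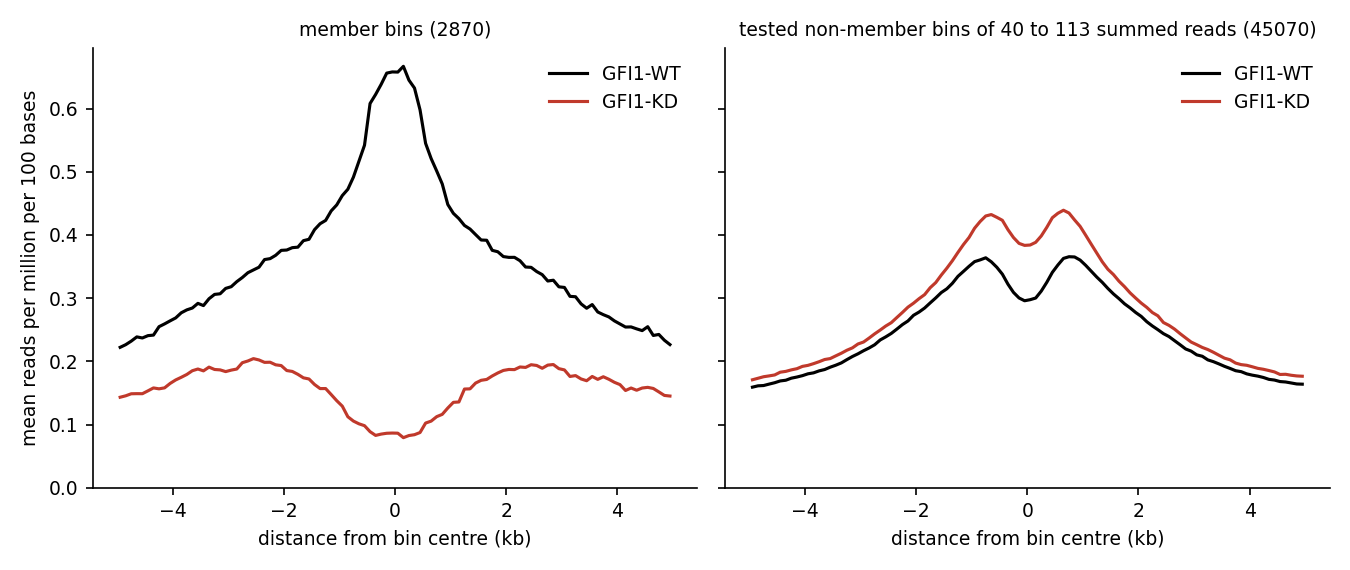
Mean H3K4me2 signal in steps of 100 bases (vertical axis, RPM) against the distance from the bin centre in kb, for the 2870 members (left) and for tested non-members of 40 to 113 summed reads (right), in GFI1-WT (black) and GFI1-KD (red). GFI1-WT has a peak at the members' centre where GFI1-KD has a trough; the centre itself was used to choose the members.

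Genes of the red cell held many members. Of 18 erythroid markers on the list used here, 16 are autosomal and in the annotation; 15 of these had tested bins, and all 15 had at least 1 member. In their bins 77 of 130 (59.2%) were members, beside 3.37% of all tested bins, and none had the mirror-image change. The share was 33.1% with a pseudocount of 2 in place of 1, and 33.8% at a ratio of 4. Summed over the gene and 5 kb on either side, the GFI1-WT to GFI1-KD ratio of the 16 loci ran from 1.31 to 9.04 with a median of 2.82, all above 1. The median over 17124 protein-coding genes was 1.05, with 0.613 and 1.64 as the 5th and 95th percentiles. Of these genes 58.7% were above 1. The label of the sample names no cell type beyond lineage-negative marrow. GFI1-KD reads per tested bin differed widely between these genes, with 2 to 7 at Slc4a1 and up to 207 at Klf1. Whether the libraries differ in their number of erythroid cells was not tested.

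The beta-globin gene Hbb-bt had the highest locus ratio of the erythroid list. All 4 tested bins linked to Hbb-bt were members, among them intergenic bins 2.42 to 4.42 kb from its start. The Hbb-bt locus held 352 GFI1-WT and 33 GFI1-KD reads, a ratio of 9.04. Hbb-bs had 165 and 17 reads at the locus, a ratio of 6.99, and its 1 tested bin was a member. Hba-a1, an alpha-globin gene, had no bin with 40 reads, and 310 and 63 reads over its locus, a ratio of 4.69. The globin genes have near-identical copies, so the split of reads between copies is uncertain. Bins linked to the embryonic gene Hbb-y, 2 of them, were members as well, with 52 and 6 reads in one and 43 and 4 in the other.

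Genes for red cell membrane proteins and enzymes varied widely, with locus ratios from 6.94 at Slc4a1 to 1.73 at Ermap and 1.43 at Tfrc. Slc4a1 encodes band 3, the anion exchanger that anchors the skeleton, and all 6 tested bins linked to it were members, with 41 to 80 GFI1-WT reads and 2 to 7 GFI1-KD reads. For Aqp1, the water channel that carries the Colton antigen, 9 of 12 linked tested bins were members, with 40 to 125 GFI1-WT reads and 1 to 28 GFI1-KD reads. Linked bins could lie outside the gene, such as members 10.2 and 11.2 kb from the start of Slc4a1 and 11.8 and 12.8 kb from that of Aqp1. Rhag, the partner of the Rhesus protein, had 6 of 8, and Ermap, the Scianna blood group gene, 5 of 6. The carbonic anhydrase genes Car1 and Car2 had 4 of 5 and 9 of 14. Tspan33 had 8 of 11, Sphk1 4 of 7, and the transferrin receptor gene Tfrc, which many dividing cells express, 1 of 10.

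A further list of 17 genes for the red cell membrane and its skeleton was put together after the members were seen, so its count only describes them. All 17 genes had members, in 96 of 164 tested bins (58.5%), and their locus ratios ran from 1.34 (Epb41) to 8.47 (Kel). The member with the largest ratio in the whole set, chr8:23036001-23037000, lies inside Ank1, whose product ankyrin links band 3 to spectrin; it held 143 GFI1-WT reads (16.0 RPM) and 9 GFI1-KD reads (0.944 RPM), a quotient of 16.9 without the added 1 (95% exact counting interval 8.68 to 37.8). The second, chr6:86080001-86081000 inside the beta-adducin gene Add2, held 83 and 2 reads, a quotient of 44.2 (11.9 to 371). Both bins were picked for their ratio from these same reads, and the intervals make no allowance for that choice. Sptb, the beta spectrin gene, had 8 members among 16 tested bins. At Kel, which encodes the Kell antigen, 5 of 5 were members, with 417 and 37 reads in sum.

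Haem and transcription factor genes, in lists also drawn up afterwards, were mixed. Of 12 haem synthesis and iron genes 9 had members, in 27 of 83 tested bins (32.5%): Fech, the last enzyme of haem synthesis, had 5 of 7 and Uros 5 of 6, whereas Ppox, Urod and the iron importer Slc25a37 had none and locus ratios of 0.999, 1.13 and 0.868. Of 15 erythroid transcription factors 10 had members, in 55 of 309 tested bins (17.8%). The GATA1 cofactor gene Zfpm1 had 10 of 28, Nfia 11 of 36, Sox6 9 of 19, Hemgn 8 of 13, Lmo2 5 of 29 and Tal1 1 of 13. Myb, Ldb1, Nfe2, Nfe2l2 and Zbtb7a had none.

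Klf1, the gene of a master regulator of globin transcription, differed between neighbouring bins. The bin with most of its promoter window, chr8:84901001-84902000, held 111 and 26 reads and was a member. The next 2 bins, within the gene, held 142 and 173 GFI1-WT reads and 164 and 207 GFI1-KD reads, ratios of 0.927 and 0.896. The fourth tested bin, chr8:84904001-84905000, held 48 and 12 reads, a ratio of 2.82 just short of the rule. Over the whole Klf1 locus the ratio was 1.31, the lowest of the 16 erythroid loci.

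**Figure D4:**
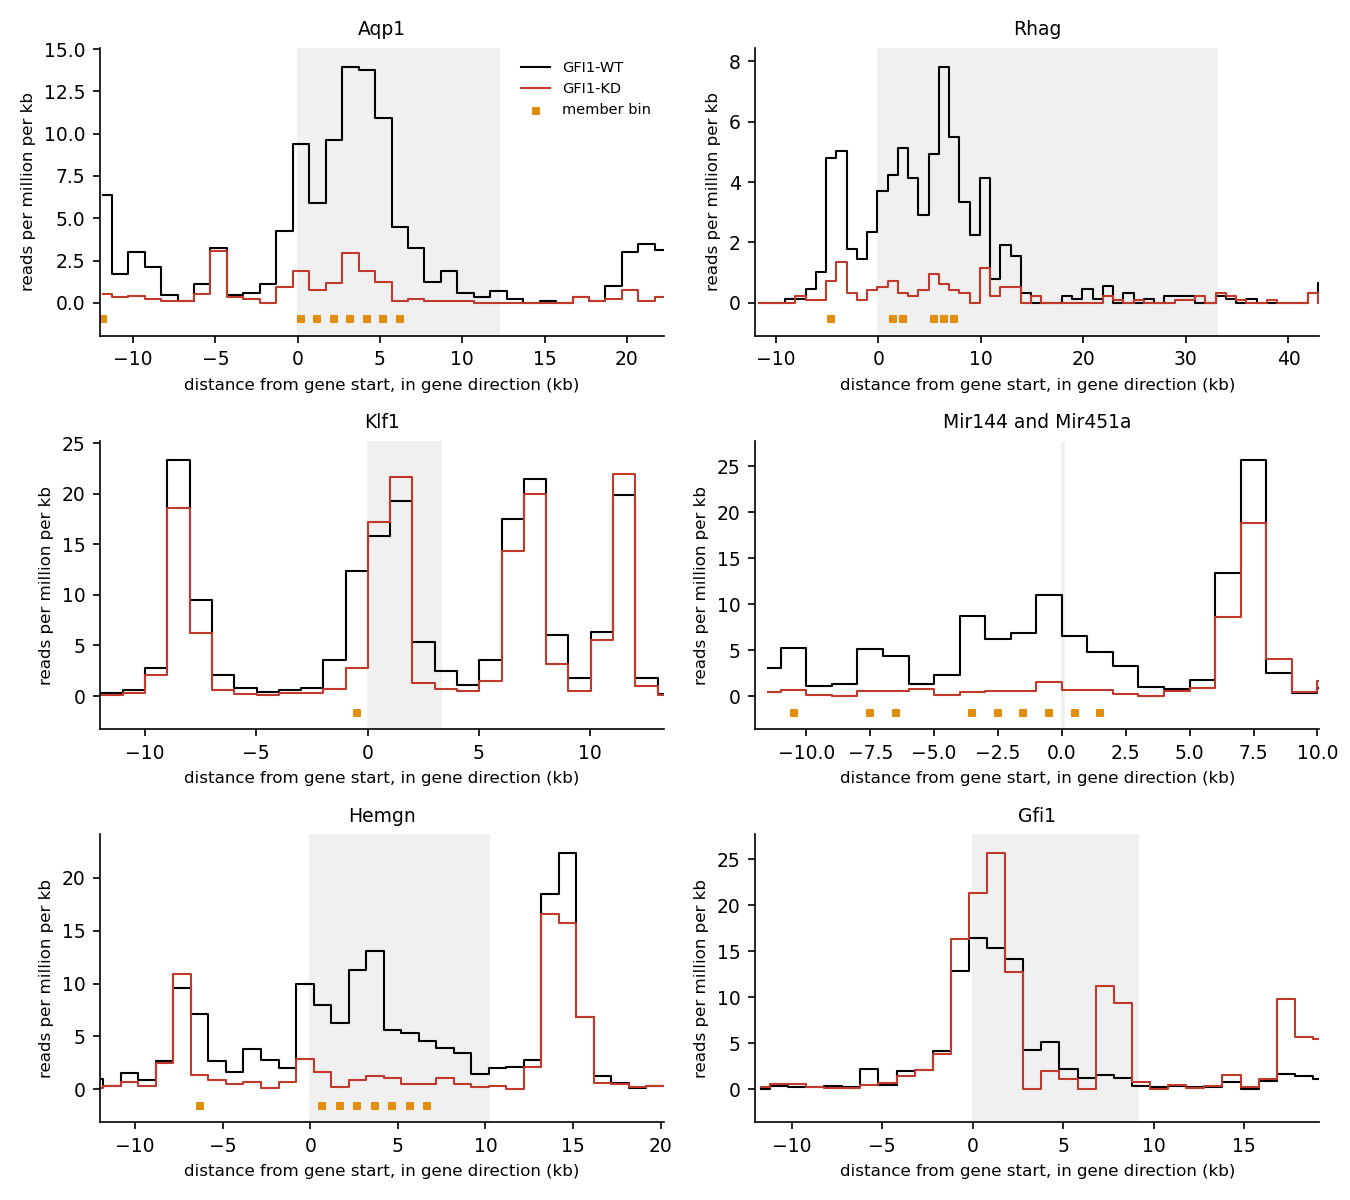
H3K4me2 in 1-kb bins (vertical axis, RPM) against the distance from the gene's start in kb, in the gene's direction, at 5 loci with members and at Gfi1; GFI1-WT in black, GFI1-KD in red, members as orange squares, gene bodies shaded. Aqp1, Rhag and the Mir144 and Mir451a cluster are low in GFI1-KD over several adjacent bins, Klf1 has 1 member beside bins of near equal signal, and Gfi1 has no member.

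Lists for other cell types held between 0 and 13 members, beside 3.37% of all tested bins, and mirror-image bins are to be set beside 1.83%. Of the megakaryocyte list 8 of 78 tested bins (10.3%) were members, at Vwf (4 bins), Gp9 (3) and Gp1ba (1), with 4 mirror-image bins (5.13%). Of the stem and progenitor list 13 of 397 (3.27%) were, near the share over all tested bins: Lmo2 had 5, Gfi1b and Ikzf2 2 each, and Kit, Tal1, Prdm16 and Runx1 1 each. The mast cell, basophil and eosinophil list had 4 of 72 (5.56%), all at Il1rl1, the gene of the IL-33 receptor. The dendritic cell list had 3 of 94 (3.19%), at Zbtb46, and the B cell list 1 of 105 (0.952%), at Bach2. No bin of 121 in the neutrophil list, 179 in the monocyte list, 159 in the T and NK cell list or 50 in the stromal list was a member. Mirror-image bins numbered 7 (5.79%) in the neutrophil list and 22 (12.3%) in the monocyte list.

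The median of the neutrophil loci was 0.739, and they lay on both sides of 1. Over 17124 protein-coding genes the median was 1.05, and 58.7% were above 1. Of 21 loci 7 were above 1: Ngp at 4.12, Itgb2l at 3.96, Retnlg at 3.54, Ly6g at 2.64, Camp at 2.04, Mmp9 at 1.59 and Ltf at 1.14. The other 14 ran from 0.347 (Chil3) to 0.966 (S100a9). The primary granule genes Elane, Mpo, Prtn3 and Ctsg had 0.455, 0.520, 0.497 and 0.412. Genes of later granules did not share a side: Mmp8 and Lcn2 stood at 0.478 and 0.711, against the values of Ltf, Camp and Ngp above. The rule asks for 40 reads within 1 kb, and Ngp and Retnlg had no such bin.

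**Figure D5:**
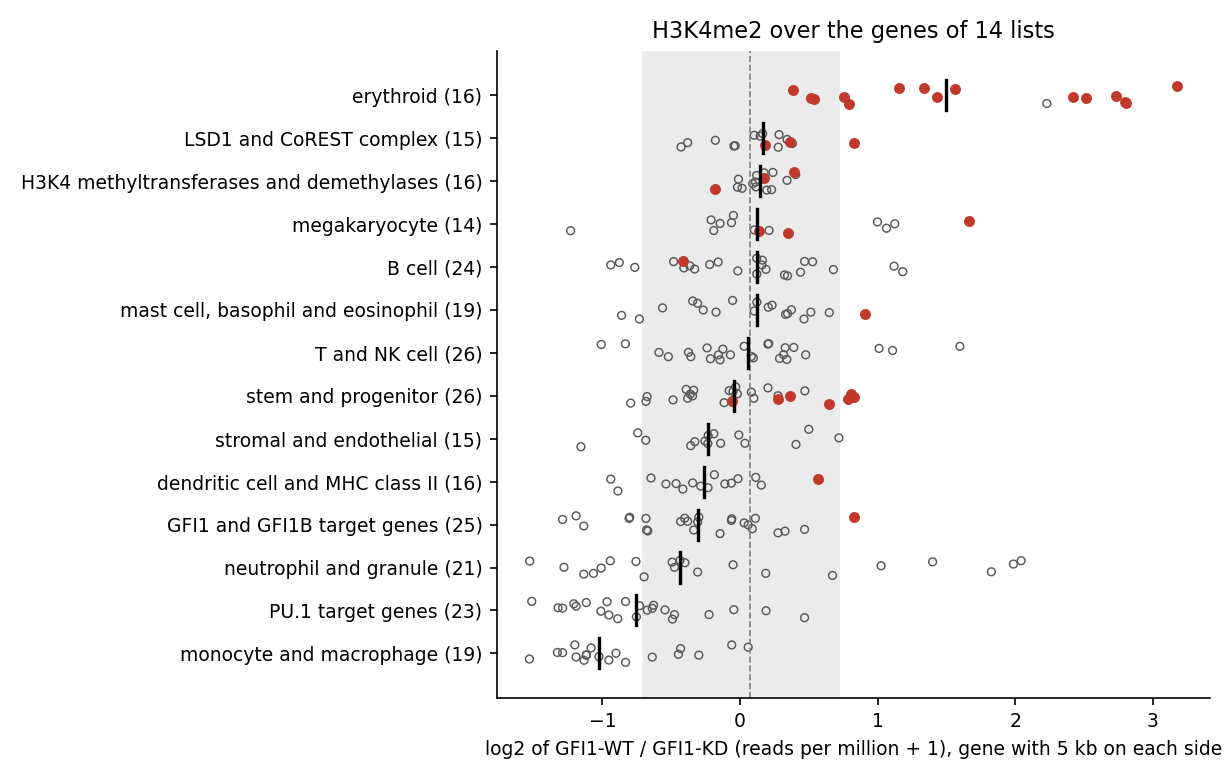
Log2 of the GFI1-WT to GFI1-KD ratio over each gene with 5 kb on both sides (horizontal axis), for the genes of 14 lists (rows, number of genes in brackets); filled red points have at least 1 member bin, bars are list medians, the dashed line is the median of 17124 genes and the grey band their 5th to 95th percentile. The erythroid list lies to the right, with loci from 1.31 to 9.04 before the log; the monocyte and PU.1 lists lie to the left.

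The GFI1 and LSD1 lists are read against the 3.37% of all tested bins that were members and the 1.83% that had the mirror-image change. Among 16 LSD1 and CoREST complex genes 15 of 184 tested bins (8.15%) were members: 10 linked to Gse1, whose product copurifies with LSD1, 3 linked to Rcor1, which encodes CoREST, and 2 at Gfi1b. The Rcor1 members lay outside the gene, 8.87 to 10.9 kb from its start, some of them within 1 kb of another annotated start. The Gfi1b members were chr2:28606001-28607000, 15.5 kb from the gene's start, with 49 and 4 reads, and chr2:28616001-28617000 in the gene with 68 and 17. The bin over the start of Gfi1b, chr2:28621001-28622000, held 103 and 151 reads, a ratio of 0.743. The other 5 tested bins of Gfi1b had ratios of 1.40 to 2.66, and the locus ratio was 1.77. Of 25 GFI1 and GFI1B target genes only Gfi1b had members, 2 of 277 bins (0.722%), and 19 bins (6.86%) had the mirror-image change. PU.1 targets had none in 203 bins and 18 mirror-image bins (8.87%). The H3K4 methyltransferase and demethylase list had 3 of 95 (3.16%), near the share over all tested bins, at Kdm5b, Kmt2b and Smyd3.

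Gfi1 itself had no member. The bins over its start held 147 and 138 GFI1-WT reads and 204 and 245 GFI1-KD reads. Inside the gene, chr5:107722001-107723000 held 38 reads in GFI1-WT and 0 in GFI1-KD, which misses the minimum of 40, and chr5:107719001-107720000 held 11 and 0. The bin beside the first of these, chr5:107721001-107722000, held 46 and 19 reads, a ratio of 2.05. Towards the end of the gene the order turned, with 14 and 107 reads in chr5:107718001-107719000 and 11 and 90 in the bin before it. These bins were picked out after their values were seen.

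In all, 2721 members were linked to 1409 genes, by lying in the gene body or, failing that, within 50 kb of its start; 623 genes had 2 or more members and 91 had 5 or more. Mgll, which encodes monoacylglycerol lipase, had the most: 13 of its 18 tested bins, with 885 GFI1-WT and 128 GFI1-KD reads in sum. Nfia and Ank1 had 11 each, with 776 and 143 reads and 708 and 72 reads. Gse1, Zfpm1 and Ranbp10 had 10 each. Aqp1, Car2, Ntn4, Slc22a23, Fam53b, Sox6 and Memo1 had 9 each, beside the Mir144 and Mir451a cluster. Of the 20 members with the largest ratio, 14 lay in gene bodies outside promoters, among them bins in the hexokinase gene Hk1 (94 and 4 reads) and the amino acid transporter gene Slc43a1 (117 and 8 reads). An intergenic member 18.6 kb from the start of Atp13a3 held 64 and 0 reads.

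RNA of the leukaemia cells gave values that the rule did not use. Kdm1a, which encodes LSD1, was at 138 to 140 counts per 1000000 (CPM) in H9M controls and 0.937 to 0.998 in H9M knockouts, and at 187 to 193 and 1.28 to 1.58 CPM in MN1. Of the 1409 linked genes 1401 were in the count table. In H9M controls 75.2% of them had a mean of at least 1 CPM and in MN1 controls 76.3%, against 67.4% and 68.8% of the 14691 genes linked to any tested bin. Of the erythroid list, 8 of 18 genes had no count in any H9M control library, among them Car1, Slc4a1, Hbb-bs and Hbb-bt, and 2 had none in MN1 controls. Slc4a1 and Car1, at locus ratios of 6.94 and 6.62, had no count in any of the 12 libraries compared.

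Linked genes changed with LSD1 loss a little more often than genes linked to any tested bin, counting changes of any size. Changes of at least 2-fold were less frequent among them. Neither difference was tested. Of 1194 tested linked genes, 382 (32.0%) rose and 344 (28.8%) fell in H9M knockouts at an adjusted p under 0.05 (edgeR quasi-likelihood, Benjamini-Hochberg over 14663 genes). Over all tested genes 26.1% rose and 25.4% fell, 51.5% in sum, and over the 11629 tested genes linked to any tested bin 29.2% rose and 29.01% fell. The median log2 fold change of the linked genes was 0.02. In MN1 knockouts 406 (34.0%) rose and 367 (30.7%) fell, with a median of 0.02, against 28.7% and 26.3% of all genes, 55.0% in sum, and 31.7% and 30.9% of genes linked to any tested bin. Among the 1194 linked genes, changes of at least 2-fold were mostly upward: 73 up and 17 down in H9M, 93 and 17 in MN1. Among the 11629 genes linked to any tested bin they were 1036 and 175 in H9M and 1172 and 161 in MN1. Over all 14663 tested genes these were 1273 and 241, and 1449 and 210. The share of linked genes up at least 2-fold was thus below that of both other sets in both models. The labels do not say whether the 3 libraries of a group are separate cultures, so these p-values measure only the spread between libraries.

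Tgm2, the tissue transglutaminase gene, had the smallest adjusted p among the linked genes in both models. It had 5 members in 23 tested bins. Its RNA was at 116, 117 and 120 CPM in H9M controls and at 0.893, 0.798 and 1.39 CPM in H9M knockouts, with a log2 fold change of -6.80 ± 0.09 (SE; edgeR adjusted p = 1.49e-31). In MN1 it was at 68.8, 68.4 and 65.2 CPM in controls and 3.74, 3.37 and 3.20 in knockouts (log2 -4.30 ± 0.07, edgeR adjusted p = 3.00e-28). The groups did not overlap in either model.

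Gfi1b went the other way. Its RNA was at 0.116, 0.142 and 0.157 CPM in H9M controls and at 112, 128 and 116 CPM in knockouts (log2 9.71 ± 0.13, edgeR adjusted p = 2.22e-31). In MN1 it stood at 72.9, 70.7 and 65.9 CPM in controls and 472, 478 and 475 CPM in knockouts (log2 2.76 ± 0.05, edgeR adjusted p = 1.20e-27). Other linked genes that rose in both were Ctss, the cathepsin S gene (log2 7.04 ± 0.13 and 5.86 ± 0.42), and Emilin2, which encodes an extracellular matrix glycoprotein (1.82 ± 0.05 and 2.00 ± 0.06). Plxnc1, a semaphorin receptor gene, rose by 2.52 ± 0.06 and 0.64 ± 0.04, and Usp25, a deubiquitinase gene, by 1.35 ± 0.04 and 0.09 ± 0.04, each with an edgeR adjusted p under 0.05. Kit, the stem cell factor receptor gene with 1 member, fell from 263, 270 and 271 CPM to 136, 133 and 130 CPM in H9M (log2 -0.996 ± 0.03) and from 337, 348 and 342 to 267, 261 and 269 CPM in MN1 (log2 -0.37 ± 0.03).

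Of the erythroid list, 10 of 18 genes passed the filter on low counts; of these 3 rose and 1 fell in H9M, and 4 rose and 2 fell in MN1. Over all tested genes 26.1% rose and 25.4% fell in H9M, and 28.7% and 26.3% in MN1. The filter took in all 8 groups, and a gene that passed only through 1 high group could differ for that reason. Genes below the filter could not be tested, so these counts do not stand for the list. Car2, with 9 members, fell in both: 69.8, 63.1 and 58.0 CPM in H9M controls against 16.3, 14.6 and 14.7 in knockouts (log2 -2.06 ± 0.07, edgeR adjusted p = 4.24e-21), and 143, 125 and 132 CPM against 66.8, 66.4 and 67.5 in MN1 (log2 -0.997 ± 0.06, edgeR adjusted p = 1.48e-15). Tfrc rose by 0.16 ± 0.06 in H9M and 0.40 ± 0.06 in MN1. Zfpm1 fell in MN1 (log2 -0.22 ± 0.05) and missed the threshold in H9M (-0.14 ± 0.07). Klf1 stayed between 0.453 and 1.70 CPM in all 12 libraries and Epor between 4.32 and 5.85 CPM in the 6 MN1 libraries, and neither passed the test in either model (edgeR adjusted p of 0.178 and 0.584 for Klf1, 0.742 and 0.624 for Epor). Add2, which has 3 of 3 tested bins as members, was at 45.0 to 49.1 CPM in MN1 controls and 110 to 115 CPM in MN1 knockouts (log2 1.26 ± 0.06).

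Among LSD1 complex genes linked to members, Gse1 RNA fell slightly in H9M (log2 -0.20 ± 0.05) and rose in MN1 (0.28 ± 0.05). Rcor1 passed in neither (-0.03 ± 0.04 and -0.04 ± 0.04). The MN1 and H9M knockout effects differed for 436 of the 1194 linked genes (36.5%), beside 28.4% of all tested genes. The share among genes linked to any tested bin was not computed, so like genes are not compared here.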

How the data were processed

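The 2870 members and the gene lists were chosen with earlier results of these data known. Per the submitters' processing notes, ChIP reads passed through CASAVA 1.8.2, BWA and bedtools 2.27.0 on GRCm38, and RNA reads were aligned with STAR 2.5.3 to mm10; no source used here names the counting tool, annotation or strand, so overlapping, antisense and near-identical genes are uncertain. The deposited ChIP files list 1 read per line with a score, its mapping quality; the deposited RNA table holds counts per gene, 22402558 to 32674685 per library over 48795 genes.

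Read 5′ ends with a mapping quality of 10 or more (99.4% and 99.5% of reads) were counted in 1-kb bins and scaled to all such reads; no position and strand was read more than once. An input library was not used here. Quotients carry 95% exact binomial-based counting intervals, which cover counting error only and not the choice of bins on the same reads. Genes and starts are from RefSeq tables (GRCm38.p6); 4205 of 20661 protein-coding genes had no start there, and both their ends served as candidates. Sequence was read only in promoter windows, not in bins, a change from the plan; windows on chromosome 18 were not used here.

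RNA was fitted with edgeR 4.0.16 (R 4.3.3): TMM, filterByExpr, 1 quasi-likelihood model of 8 groups and 24 libraries, two-sided, 14663 genes tested, adjusted p under 0.05. A run on simulated counts, in which few genes changed, checked the code and not the calls made here. DESeq2 1.42.0 was an alternative. The text names the members with the largest ratio or most reads, genes with most members, list genes, bins beside the threshold and at Gfi1, and linked genes with the smallest adjusted p, from the top of each. The 14 lists cover 10 cell types and 4 programs; 3 more were added after the values were seen. Values of 2 list genes are not reported here singly.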

Additional observations from a re-analysis of the deposited data

Results flagged for a closer look

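The effect of LSD1 knockout on 11 of the linked genes named above differed between MN1 and H9M by edgeR's interaction term (adjusted p under 0.05, 3 libraries in each of 4 groups). The difference, MN1 minus H9M on the log2 scale, was -6.95 for Gfi1b (edgeR adjusted p = 1.35e-22), -1.87 for Plxnc1, -1.26 for Usp25, -0.54 for Tal1 and -0.14 for Lmo2. It was 5.39 for Add2, where H9M libraries held 0 to 3 counts, 2.50 for Tgm2, 1.06 for Car2, 0.63 for Kit, 0.48 for Gse1 and 0.24 for Tfrc.

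Chromosome Y, outside the autosomes that the bins cover, held 1530 reads in GFI1-WT (171 RPM) and 98 reads in GFI1-KD (10.3 RPM). The labels give no sex for either library, and the part of such a difference in the members was not tested.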

How the results depend on the processing

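The number of members stayed within 1.5 times of 2870 under 10 of 14 alternatives, 1 of them (scaling by reads outside tested bins, 2348) chosen after seeing the data. Another of these, 1 read per position and strand, could change no count or share, since no position and strand was read more than once. It was 1075 with a pseudocount of 2, 1406 with 60 summed reads or more, 5655 at a ratio of 2 and 1300 at a ratio of 4. The share near a start was 15.4% with a pseudocount of 2, 11.5% with 30 summed reads or more, 16.1% with 60 and 14.5% at a ratio of 2; the other 10 lay within its interval. The erythroid share, an alternative added later, was 33.1%, 76.2% and 33.8% with a pseudocount of 2, a ratio of 2 and a ratio of 4. Detected linked genes were 68.5% in H9M and 70.5% in MN1 at 5 CPM, and 78.8% in MN1 at 0.5 CPM. Counts of changed linked genes, 726 in H9M and 773 in MN1, ran from 673 to 696 and from 714 to 728 when 1 library was left out. With a replicate block they were 727 and 769; same-numbered libraries did not deviate together, so the numbers were not taken as pairs. The other RNA alternatives kept both counts within 1.5 times. Members rest on 40 to 204 reads summed over both libraries, 1 per genotype, and a bin under 40 summed reads could not be a member.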
